A study of Mus musculus with 4 samples.

Results

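The genes described here encode the platelet-derived growth factor (PDGF) ligands Pdgfa, Pdgfb, Pdgfc and Pdgfd, the PDGF receptors Pdgfra and Pdgfrb, and the vascular endothelial growth factor (VEGF) family ligands Vegfa, Vegfb, Vegfc and Pgf. They were chosen by gene symbol as members of the 2 families, 10 among 54532 counted gene IDs. All 10 were found in the counts and in the table of TPM (a transcript level scaled for length and library total), and all 10 passed the filter on low counts.

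PDGF ligands are secreted dimers that bind the receptor tyrosine kinases PDGFR-alpha and PDGFR-beta. In the embryonic head, PDGFR-alpha is best known for neural crest and mesenchyme, and PDGFR-beta for the mural cells that are recruited to vessels by PDGF-B from endothelium. VEGF-A from the neural tube is the main signal that draws vessels into it, through the receptors VEGFR1 (Flt1) and VEGFR2 (Kdr) on endothelium, while VEGF-C acts mostly through VEGFR3 (Flt4).

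RNA was sequenced from cranial neural tubes dissected from mouse embryos at embryonic day 10.5, in 4 libraries from separate embryos. The 2 Control embryos had no E2f1 Tg(Wnt1-cre)2Sor/+ transgene. The 2 DCKO embryos carried that transgene together with Lats1 flox/flox and Lats2 flox/flox, so that Cre recombinase, driven by Wnt1 sequences active in the dorsal neural tube and the neural crest that leaves it, deletes both kinase genes there. LATS1 and LATS2, the kinases of the Hippo pathway, phosphorylate YAP and TAZ and keep them out of the nucleus; cells without Cre in the dissected tissue keep both genes. Whether Control embryos carried floxed alleles is not given in the labels. The series title puts the question as whether these kinases, through YAP, govern the TGF-beta driven change of neuroepithelium into mesenchyme.

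Library totals lay between 41798361 and 55137810 counts. Levels below are CPM, read counts scaled to a common library size (by the trimmed mean of M values, TMM), unless TPM is named. Lats1 had 44.2 and 65.6 CPM in Control against 30.02 and 29.7 in DCKO, and Lats2 had 26.7 and 13.3 against 21.2 and 35.3. Whole-gene counts can hold reads of exons that remain after deletion, so they are a weak check of the genotype. Genes at the ribosomal RNA cluster of chromosome 17 took 12.4% to 13.2% of Control counts and 24.7% to 30.3% of DCKO counts. Xist had at least 7786 counts in each Control library and at most 22 in each DCKO library, so the presence of an inactive X chromosome cannot be told apart from group. Transgene and group cannot be told apart either.

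In DCKO, 5 of the 10 genes rose: Pdgfra, Pdgfrb, Pdgfc, Vegfa and Vegfc. In dissected tissue, more cells of a type and more RNA of a gene per cell cannot be told apart. The other 5, Pdgfa, Pdgfb, Pdgfd, Vegfb and Pgf, did not pass the threshold, an adjusted p under 0.05 in edgeR's quasi-likelihood test with adjustment over all 19207 tested genes. Over all tested genes, 8.93% were higher by this rule and 8.11% were lower. None of the 10 was lower in edgeR (0 at an unadjusted p under 0.05), in DESeq2 (which called 13.5% of genes lower) or in limma-voom (9.01%). At an unadjusted p under 0.05 in edgeR 9 were higher, against 18.5% of all tested genes. By adjusted p, limma-voom called the same 5 higher, where it called 9.43% of all genes higher. Both DCKO libraries lay above both Control libraries for all 10 genes, against 33.6% of all tested genes. The median log2 fold change of the 10 was 1.72, against 0.03 for all tested genes. In edgeR fits without 1 library, which assume that the lone library varies like the other pair, 2 members (Pdgfrb and Vegfa) were higher without Control 1, where 1.20% of all genes were. Without Control 2, 0 passed, against 0.761% of all genes (6 at an unadjusted p under 0.05, against 10.7%), while 7 passed without DCKO 1 (10.9%) and 5 without DCKO 2 (12.8%).

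**Figure D1:**
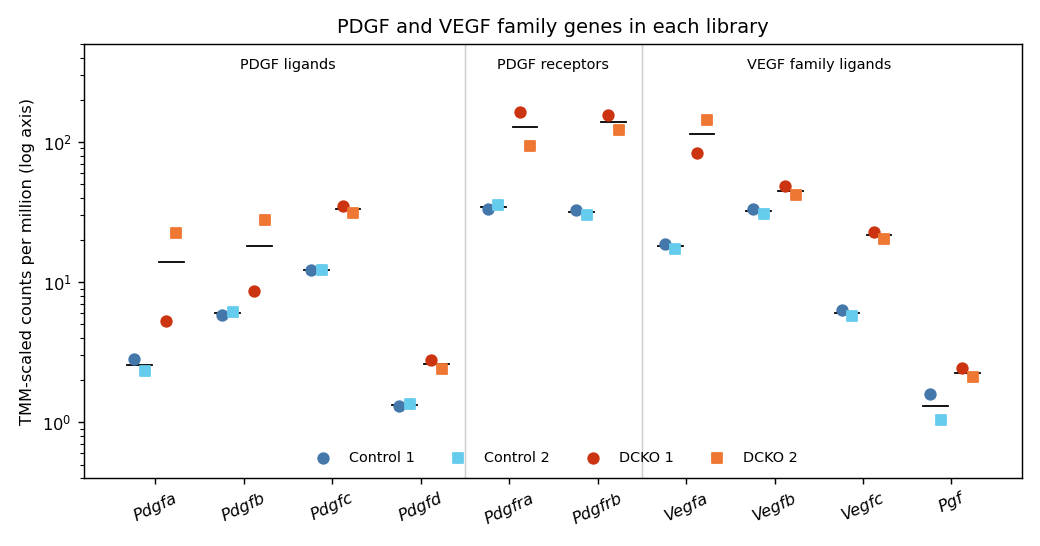
Level of each of the 10 genes in each of the 4 libraries, as TMM-scaled CPM on a log axis. Points are libraries and black bars are group means. The DCKO points lie above the Control points for every gene, and the DCKO points of Pdgfa (5.30 and 22.4) and Pdgfb (8.62 and 27.7) lie far apart.

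The sequence upstream of the start site is shown for the risen members, since these are the genes that passed the test. Of the 10 members, 8 had an entry in the RefSeq promoter table (build GRCm38.p6), among them 4 of the 5 that rose. The 250 bases before the RefSeq start are given 5′ to 3′ on the strand of the gene. For Pdgfra, Vegfa and Vegfc that start lies upstream of the GENCODE gene span printed below. The bases just after it matched no GENCODE transcript of the gene on either strand. Capitals mark matches, on either strand, to GGAATG (the core bound by TEAD factors, the DNA-binding partners of YAP), ACGTG (the core bound by hypoxia-inducible factors, HIF), GGGCGG (the GC box of SP and KLF factors) or TGAGTCA (the AP-1 site).
Pdgfc, chr3:81036166-81036415, plus strand: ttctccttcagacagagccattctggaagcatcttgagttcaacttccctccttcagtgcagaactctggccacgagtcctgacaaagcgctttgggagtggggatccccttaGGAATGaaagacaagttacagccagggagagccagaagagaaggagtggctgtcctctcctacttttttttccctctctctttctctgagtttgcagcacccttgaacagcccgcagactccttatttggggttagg
Pdgfra, chr5:75152001-75152250, plus strand: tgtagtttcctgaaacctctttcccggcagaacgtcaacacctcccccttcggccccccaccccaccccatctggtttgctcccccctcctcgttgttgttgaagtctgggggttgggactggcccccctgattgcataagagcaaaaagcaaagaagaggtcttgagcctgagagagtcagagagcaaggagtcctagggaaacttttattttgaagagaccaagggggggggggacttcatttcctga
Vegfa, chr17:46032378-46032627, minus strand: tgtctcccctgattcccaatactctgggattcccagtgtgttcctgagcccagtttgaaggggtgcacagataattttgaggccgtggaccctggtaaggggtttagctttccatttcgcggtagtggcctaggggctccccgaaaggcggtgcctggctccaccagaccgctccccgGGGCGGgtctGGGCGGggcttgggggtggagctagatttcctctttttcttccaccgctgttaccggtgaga
Vegfc, chr8:54077282-54077531, plus strand: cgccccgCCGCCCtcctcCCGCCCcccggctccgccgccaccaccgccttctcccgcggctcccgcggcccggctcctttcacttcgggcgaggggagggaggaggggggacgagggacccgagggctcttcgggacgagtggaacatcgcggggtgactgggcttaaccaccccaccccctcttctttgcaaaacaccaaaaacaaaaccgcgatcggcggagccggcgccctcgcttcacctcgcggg

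In these windows the TEAD core was found in Pdgfc, starting 137 bases before the start site. GC boxes were found 72 and 62 bases before the start of Vegfa and 243 and 232 bases before that of Vegfc, where they read on the opposite strand as CCGCCC. The window of Pdgfra held none of the 4 motifs. Of all 32851 windows of the same length in the table, 12.6% held the TEAD core, 16.6% the HIF core, 32.7% a GC box and 4.46% the AP-1 site. Over the 11 windows of the 8 members, 1 held the TEAD core, 1 the HIF core (at the internal start of Vegfa) and 7 a GC box, while AP-1 letters were in 0 of 11. The GC content of these windows ran from 50.8% (Pdgfc) to 76.4% (Vegfb), against a median of 52.4% over all windows. The GC box count was not corrected for this. Pdgfa, Pgf and Vegfa have more than 1 window each, and a window of Pdgfa and those of Pgf end inside an annotated transcript. A match is a description of letters in a short window, and regulatory elements outside it were not searched.

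Among PDGF ligands, Pdgfc rose in both DCKO embryos and Pdgfa and Pdgfb were high mainly in 1 of them. PDGF-C is secreted as a latent dimer that proteases activate, and it signals through PDGFR-alpha. Pdgfc (ENSMUSG00000028019, chromosome 3, 81036416 to 81214040 on GRCm38) had 12.3 and 12.2 CPM in Control against 35.1 and 31.1 in DCKO. The libraries of each group lay close together and the groups did not overlap. The rise was 2.71-fold (log2 fold change 1.44, SE 0.18, adjusted p 0.0117). Without Control 1 or Control 2 its adjusted p was 0.0903 or 0.0985, with log2 fold changes of 1.44 and 1.40.

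Pdgfa (ENSMUSG00000025856, chromosome 5, 138976014 to 138997370) encodes PDGF-A, the classical ligand of PDGFR-alpha. It had 2.83 and 2.31 CPM in Control, 5.30 in DCKO 1 and 22.4 in DCKO 2. Relative to the Control mean, DCKO 1 was at 2.06 times and DCKO 2 at 8.73 times that level. The fitted fold was 5.39 with a 95% interval of 1.65 to 17.6, and it missed the threshold (log2 fold change 2.43, SE 0.68, adjusted p 0.0642). With DCKO 2 left out the log2 fold change was 1.04 (adjusted p 0.0620), and with DCKO 1 left out it was 3.12 and passed (0.00123).

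Pdgfb (ENSMUSG00000000489, chromosome 15, 79995874 to 80014977), which encodes the ligand of PDGFR-beta that endothelial cells use to recruit mural cells, had the same uneven pair. Its levels were 5.88 and 6.09 CPM in Control, 8.62 in DCKO 1 and 27.7 in DCKO 2. Those are 1.44 and 4.63 times the Control mean. Its log2 fold change of 1.60 (SE 0.54, adjusted p 0.0984, 95% interval of the fold 1.18 to 7.79) was 0.53 without DCKO 2 (0.158) and 2.21 without DCKO 1, where it passed (0.00163). In DESeq2, 7 of the 10 genes were higher, Pdgfa and Pdgfb among them, against 13.5% of all genes.

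The other ligand, Pdgfd (ENSMUSG00000032006, chromosome 9, 6168584 to 6378850), encodes PDGF-D, which needs cleavage and binds PDGFR-beta. It had 1.31 and 1.36 CPM in Control against 2.80 and 2.41 in DCKO, from 69 to 112 counts a library. Its fold of 1.95 had a 95% interval of 1.03 to 3.67 and an adjusted p of 0.125. Exons of Pdgfa and Pdgfc overlap genes on the opposite strand, and whether counting used strand is not given in the sources used here. The partner of Pdgfa, 6330403L08Rik, had 93 and 45 counts in Control against 42 and 143 in DCKO, and Gm16000 at Pdgfc had at most 70, well under the 615 to 1405 counts of Pdgfc.

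Both PDGF receptor genes rose, to similar levels. Pdgfra (ENSMUSG00000029231, chromosome 5, 75152292 to 75198215) encodes PDGFR-alpha, the receptor of neural crest mesenchyme and later of oligodendrocyte precursors. It was at 33.5 and 35.3 CPM in Control, 164 in DCKO 1 and 93.2 in DCKO 2. The groups were far apart, with DCKO 1 at 1.76 times DCKO 2. The rise was 3.74-fold (log2 fold change 1.90, SE 0.30, adjusted p 0.0179). Without Control 1 or Control 2 the adjusted p was 0.0923 or 0.0952, with log2 fold changes of 1.86 and 1.91. Overlapping models at Pdgfra had at most 22 counts.

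Pdgfrb (ENSMUSG00000024620, chromosome 18) encodes PDGFR-beta, the receptor of pericytes and other mural cells. It had 32.8 and 30.2 CPM in Control against 155 and 122 in DCKO. The rise was 4.40-fold (log2 fold change 2.14, SE 0.19, adjusted p 0.00761), the smallest adjusted p among the 10 genes in this fit, and without Control 2 it was 2.05 with an adjusted p of 0.0513. The ratio of Pdgfra to Pdgfrb in TPM was 0.896 and 1.23 in Control against 1.09 and 0.767 in DCKO. The 2 groups overlapped in this ratio, so no shift between the receptors was seen beyond the spread of the libraries.

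In the VEGF family, Vegfa and Vegfc rose while Vegfb and Pgf did not pass. Vegfa (ENSMUSG00000023951, chromosome 17, 46016993 to 46032369) encodes the main angiogenic ligand and is a textbook target of HIF. It had 18.9 and 17.2 CPM in Control, 83.5 in DCKO 1 and 144 in DCKO 2. The 6.33-fold rise (95% interval 3.77 to 10.6) corresponded to 2.66 on the log2 scale (SE 0.30, adjusted p 0.00988). Without Control 2 the log2 fold change was 2.56 and the adjusted p 0.0594.

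Vegfc (ENSMUSG00000031520, chromosome 8, 54077606 to 54187096), whose product drives lymphatic growth, had 6.31 and 5.71 CPM in Control against 22.9 and 20.2 in DCKO. The DCKO pair was tight and well above Control. It rose 3.58-fold (log2 fold change 1.84, SE 0.21, adjusted p 0.00988). Without Control 1 or Control 2 the adjusted p was 0.0697 or 0.0847, with log2 fold changes of 1.91 and 1.74.

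Vegfb (ENSMUSG00000024962, chromosome 19, 6982473 to 6987651) encodes a VEGFR1 ligand with little angiogenic activity of its own. Its levels were 33.4 and 30.7 CPM in Control against 48.4 and 41.5 in DCKO, a fold of 1.40 with a 95% interval of 1.05 to 1.87 and an adjusted p of 0.101. On TPM the groups overlapped, with 53.2 and 40.4 in Control against 53.2 and 54.5 in DCKO. Pgf (ENSMUSG00000004791, chromosome 12, 85166635 to 85177790), placental growth factor, another VEGFR1 ligand, had 53 to 99 counts a library. It had 1.58 and 1.05 CPM in Control against 2.42 and 2.11 in DCKO, and its fold of 1.72 (95% interval 0.845 to 3.51) had an adjusted p of 0.230.

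**Figure D2:**
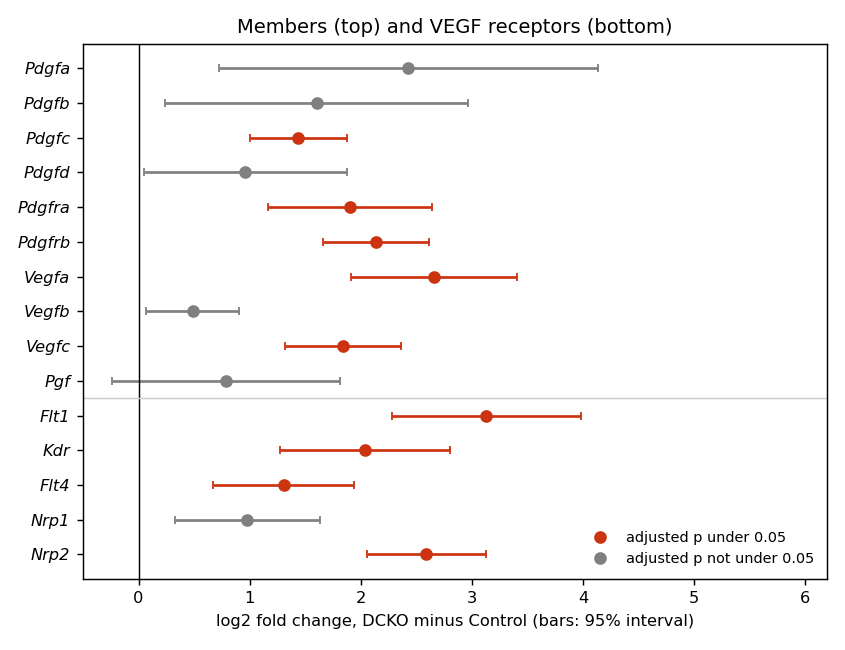
Log2 fold change of DCKO minus Control for the 10 genes (above the grey line) and 5 VEGF receptor and coreceptor genes (below it), from edgeR, with bars for 95% intervals. Red marks an adjusted p under 0.05; Vegfa has the largest estimate of the 10 at 2.66, and the interval of Pgf crosses 0.

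Levels of different genes were set side by side on TPM. In Control, Vegfb was highest at 53.2 and 40.4 TPM. Vegfa (14.5 and 9.97), Pdgfrb (11.3 and 8.55) and Pdgfra (10.2 and 10.5) came next and overlapped each other. Below them lay Pdgfc (6.82 and 5.45), then Vegfc (4.81 and 3.57) and Pdgfb (3.85 and 3.50), which overlapped, Pdgfa (2.81 and 1.72) and Pgf (1.88 and 0.977), which overlapped, and Pdgfd (0.975 and 0.706).

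In DCKO, Vegfa at 49.9 and 93.2 TPM overlapped Vegfb at 53.2 and 54.5. Pdgfrb (37.6 and 35.2) and Pdgfra (41.0 and 27.0) were next and overlapped, ahead of Pdgfc (14.4 and 14.9) and, just below it, Vegfc (13.5 and 14.3), a gap smaller than the spread of Vegfc. Pdgfa (3.55 and 17.01) and Pdgfb (4.01 and 15.4) spanned those levels, and Pgf (1.98 and 1.94) and Pdgfd (1.75 and 1.28) were lowest.

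The makeup of the ligand pools differed by library. Vegfa made up 19.5% and 18.2% of the summed TPM of Vegfa, Vegfb, Vegfc and Pgf in Control, 42.1% in DCKO 1 and 56.9% in DCKO 2. Vegfb made up 71.5% and 73.6%, then 44.9% and 33.3%. The groups did not overlap for either share. Among PDGF ligands, Pdgfc held 47.2% and 47.9% in Control and 60.8% in DCKO 1 but 30.8% in DCKO 2. In DCKO 2, Pdgfa, Pdgfb and Pdgfc had nearly equal shares of 35.0%, 31.6% and 30.8%, so the 2 DCKO embryos lay on opposite sides of Control for the share of Pdgfc.

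**Figure D3:**
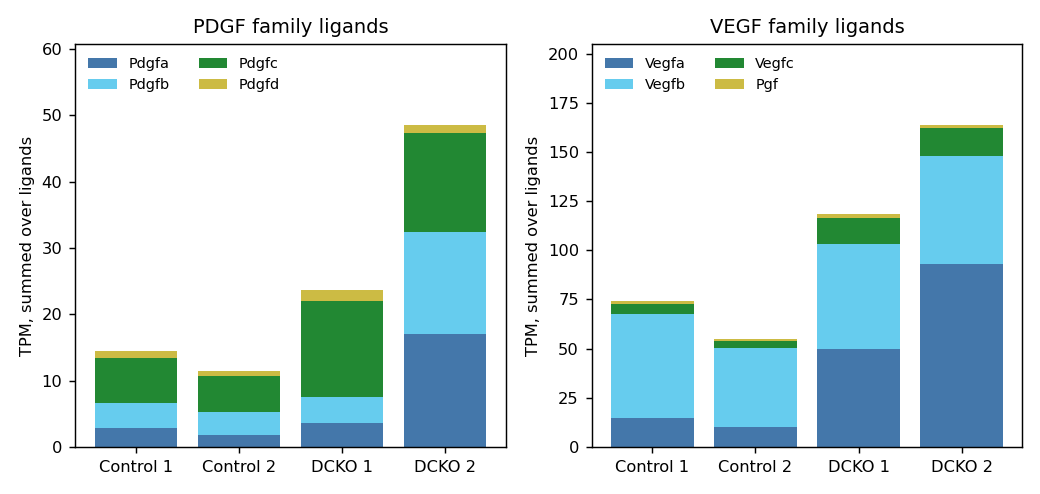
TPM of the 4 PDGF ligand genes (left) and the 4 listed VEGF family ligand genes (right), stacked for each library, with bars starting at 0. The PDGF stack reaches 14.5 and 11.4 TPM in Control, 23.7 in DCKO 1 and 48.6 in DCKO 2, and Vegfa takes a larger part of the VEGF stack in both DCKO libraries.

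The authors' deposited table lists 8 of the 10 genes, with positive log2 fold changes for all 8 and a false discovery rate under 0.05 for 7, where 15.6% of its 12574 genes were higher by that rule. In the authors' deposited table Vegfa had a log2 fold change of 2.72 (FDR 8.26e-14), Pdgfa 2.49 (0.000246), Pdgfb 1.66 (0.00422) and Vegfb 0.54 (0.118). The estimates there and in edgeR differ little, and the calls of Pdgfa and Pdgfb differ. The test behind that table is not given in the sources used here.

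The receptors of the VEGF ligands were measured in the same fit, and 4 of 5 rose, against 8.93% of all tested genes. Flt1, which encodes VEGFR1, a high-affinity receptor that also acts as a trap for VEGF-A, had 16.2 and 13.7 CPM in Control, 170 in DCKO 1 and 91.7 in DCKO 2. It rose 8.76-fold (log2 fold change 3.13, SE 0.34, adjusted p 0.00930). Kdr, the main signalling receptor of VEGF-A, had 47.3 and 41.4 CPM in Control against 234 and 131 in DCKO (log2 fold change 2.04, SE 0.31, adjusted p 0.0171). For both genes DCKO 1 was the higher library, the reverse of their ligand gene Vegfa.

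Flt4 (VEGFR3) rose from 13.9 and 11.5 to 25.5 and 37.6 CPM (log2 fold change 1.31, SE 0.25, adjusted p 0.0282). Nrp2, a neuropilin coreceptor, rose from 47.6 and 43.9 to 233 and 318 CPM (2.59, SE 0.21, adjusted p 0.00684). Nrp1, the neuropilin that partners VEGFR2, had 16.8 and 18.6 CPM in Control against 42.7 and 27.0 in DCKO and missed the threshold (0.98, SE 0.26, adjusted p 0.0569). Without Control 1 only Flt1 and Nrp2 of the 5 passed in edgeR, and without Control 2 only Nrp2. Nrp1 passed without DCKO 2 (adjusted p 0.00734).

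Of 10 genes for processing of the ligands and their binding outside the cell, 8 rose, with a median log2 fold change of 1.61. Over all tested genes, 8.93% rose by the same rule. St14, the membrane protease matriptase, which can cleave PDGF-D, had 0.160 and 0.237 CPM in Control against 10.3 and 9.15 in DCKO (log2 fold change 5.61, SE 0.39, adjusted p 0.00602). Adamts3 and Ccbe1, which together process VEGF-C, rose by 1.60 and 1.58 on the log2 scale. Pcsk5, a proprotein convertase, rose by 1.91, and Sparc, a matrix protein that binds PDGF, by 1.62. The levels of Plat, the tissue plasminogen activator that cleaves PDGF-C, were 37.0 and 38.0 CPM in Control against 85.6 and 52.3 in DCKO (adjusted p 0.0727). The count higher was 1 of 10 without Control 1 and 1 without Control 2.

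Genes of shared receptor signalling went both ways, with 3 of 16 higher, 3 lower and a median log2 fold change of -0.32. Over all tested genes, 8.93% were higher and 8.11% lower in the same fit, with a median of 0.03. The adaptors Gab1 (log2 fold change 1.24, adjusted p 0.0143) and Shc1 (1.08, 0.0179) rose, as did the phospholipase Plcg2 (1.36, 0.0189). The adaptor Shc2 (-1.01, 0.0351) and the PI3-kinase subunits Pik3r1 (-0.75, 0.0418) and Pik3ca (-0.68, 0.0497) fell. Plcg1, the phospholipase most used by VEGFR2, had a log2 fold change of 0.08 with a 95% interval of -0.29 to 0.46. None of the 16 passed without Control 1 or without Control 2 in edgeR (0 higher in each, with 3 and 3 at an unadjusted p under 0.05, and 0 lower in each, with 1 and 4), and without DCKO 2, 5 of the 16 were lower, Pik3ca not among them. Scaled by library totals, 3 were higher and 8 lower (median -0.67), where 6.35% of all tested genes were higher and 19.5% lower (median -0.32). Scaled by upper quartiles, 3 were higher and 2 lower, without Pik3ca, where 9.52% and 7.33% of all tested genes were.

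Since Vegfa and Flt1 are known HIF targets, regulators and other targets of that pathway are given beside them. Of 15 such genes, 12 rose and 0 fell, where 8.93% and 8.11% of all tested genes did. Their median log2 fold change was 1.81. The count lower was also 0 at an unadjusted p under 0.05 in edgeR, and 0 by adjusted p in DESeq2 and in limma-voom. Adm, adrenomedullin, had 0.958 and 1.07 CPM in Control against 70.3 and 79.4 in DCKO (log2 fold change 6.21, SE 0.21, adjusted p 0.00280). Ndrg1, a stress-induced gene, had 3.83 and 3.85 CPM in Control against 98.5 and 94.2 in DCKO (4.65, SE 0.17, adjusted p 0.00280). Egln3, a HIF prolyl hydroxylase, and Ankrd37, an ankyrin-repeat gene, rose by log2 fold changes of 3.26 and 3.39. Hif1a itself had a log2 fold change of -0.23 (95% interval -0.68 to 0.22). Without Control 2, 7 of the 15 were higher. The part of this pathway in the rise of Vegfa was not tested.

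Most markers of the cells known to carry these receptors, and of surface ectoderm, were higher in the same libraries. Of 12 endothelial markers 7 rose, with Tek, Sox17 and Pecam1 leading, and the summed level of the list went from 147 to 149 CPM in Control to 550 in DCKO 1 and 345 in DCKO 2. Cldn5, a tight junction gene of endothelium, had 18.2 and 15.99 CPM in Control, 6.97 in DCKO 1 and 19.4 in DCKO 2, and did not pass (log2 fold change -0.37). Of 15 cranial mesenchyme markers 8 rose, led by Prrx1, Foxc1 and Twist1, and the sum went from 661 and 710 to 4449 and 2079 CPM. Of 10 pericyte and mural markers tested 7 rose, led by Acta2, Tagln and Abcc9, and Notch3 fell (it missed the threshold with upper quartile scaling), with sums of 218 and 208 against 483 and 718 CPM. Of 10 surface ectoderm markers tested 8 rose, led by Trp63, Wnt6 and Krt18, with sums of 16.96 and 30.02 against 282 and 288 CPM. Myh11 of the mural and Krt5 of the ectoderm list did not pass the filter on low counts. No marker of these lists was at 0 in all libraries, and 8.93% of all tested genes were higher in the same fit. Without Control 1 or Control 2, the markers called higher were 0 and 0 for endothelium (without DCKO 2, 9 were higher and 1, Cldn5, lower), 0 and 2 for mesenchyme, and 2 and 1 for mural cells, where none was lower, and without Control 2 they were 4 for surface ectoderm.

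Neural markers fell. Of 9 neural progenitor markers 7 fell, led by Sox3, Sox1 and Nes, with sums of 2413 and 2691 CPM in Control against 959 and 802 in DCKO, so the markers of the labelled tissue were present in all 4 libraries. Of 8 neuronal markers 5 fell, led by Nhlh1, Elavl4 and Nhlh2. Of 8 erythroid markers 7 fell, led by Slc4a1, Hbb-bh1 and Hba-x, with sums of 2572 and 3817 against 899 and 663 CPM, while endothelial markers were higher. Without Control 1 or Control 2, 3 and 3 progenitor and 1 and 0 neuronal markers were lower, without DCKO 1, 8 neuronal markers were, and without Control 2, 2 erythroid ones. The part of any of these cell types in the changes of the 10 genes was not tested.

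The 2 DCKO libraries also differed from each other in markers and members. Relative to the Control mean, the mesenchyme sum was at 6.49 times in DCKO 1 and 3.03 in DCKO 2, and Pdgfra was at 4.77 and 2.71. The endothelial sum was at 3.71 and 2.33, and Kdr at 5.27 and 2.95. Notch3, the mural marker that fell, made up most of the mural sum in Control (176 and 171 CPM), so the ratios of that sum depend on it. Acta2 weighed most in DCKO (167 and 334 CPM), and Tagln was also higher in DCKO 2 (78.7 and 190 CPM). Notch3 and Mcam were slightly higher in DCKO 2, and Des was nearly equal. The remaining mural markers, Rgs5, Cspg4, Myh11, Anpep, Kcnj8 and Abcc9, were higher in DCKO 1, with Abcc9 at 42.4 against 15.9 CPM. The mural sum was at 2.27 and 3.37 times the Control mean, and Pdgfrb at 4.92 and 3.88. These are ratios of single libraries, with no replicate behind each.

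Pdgfa and Pdgfb ran against most of these lists, with 4.23 and 3.21 times more in DCKO 2 than in DCKO 1. Summed platelet and megakaryocyte markers were low in Control (9.58 and 9.21 CPM). They were at 4.66 times the Control mean in DCKO 1 and 0.893 in DCKO 2. Macrophage markers were at 2.73 and 0.955 times. Of the 6 platelet and 8 macrophage markers, 0 passed in edgeR and in limma-voom, 1 of each list passed in DESeq2, and 1 macrophage and 0 platelet markers had an unadjusted p under 0.05 in edgeR. Without DCKO 2, 4 of each list were higher. The platelet gene Ppbp had 1.09 and 0.968 CPM in Control, 10.7 in DCKO 1 and 0.785 in DCKO 2. Mrc1, of macrophages, had 4.58 and 8.14, then 27.3 and 10.4. Sox10 and Foxd3, neural crest factors, were high in DCKO 2, at 24.1 and 12.3 CPM against 1.38 and 0.725 in DCKO 1, and neither passed (adjusted p 0.162 and 0.0816). Their list of 6 had 1 gene called, Ets1, which rose (log2 fold change 1.39, adjusted p 0.0346; scaled by library totals 0 of the 6 were higher and 2 lower), and its sums were 44.1 and 61.7 CPM in Control against 103 and 98.6 in DCKO. The part of these cells in the levels of Pdgfa and Pdgfb was not tested.

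**Figure D4:**
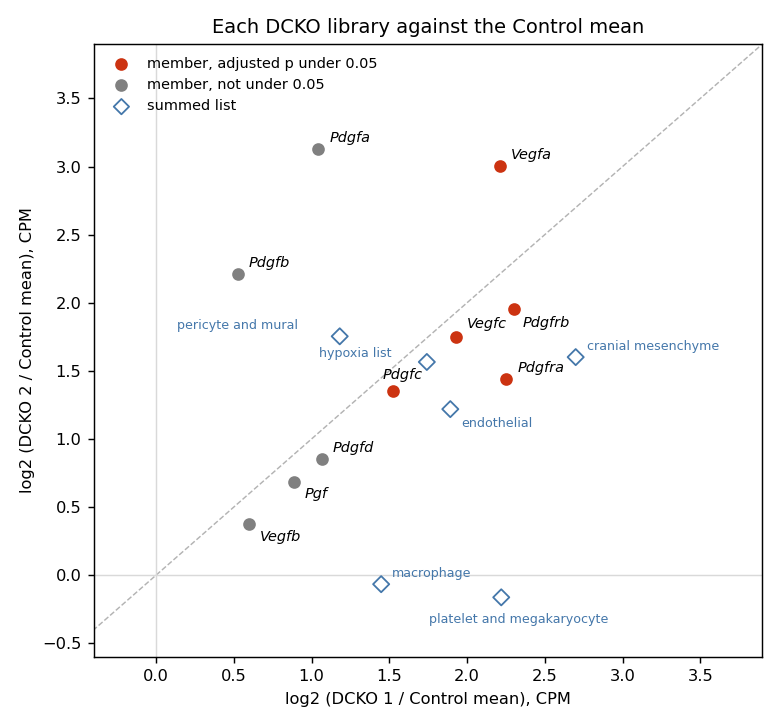
Level of DCKO 1 (horizontal) and DCKO 2 (vertical) over the Control mean, both as log2 ratios of CPM, for the 10 genes (circles, red where the adjusted p is under 0.05) and summed lists (diamonds); the dashed line marks equal ratios. Pdgfa, Pdgfb and Vegfa lie above the line and the other 7 genes lie below it. The mural sum also lies above it, where Acta2 and Tagln outweigh Rgs5, Cspg4, Myh11, Anpep, Kcnj8 and Abcc9, which were higher in DCKO 1. The platelet sum is far below at 4.66 times in DCKO 1 and 0.893 times in DCKO 2.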

How the data were processed

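The authors deposited whole-number read counts per Ensembl gene, TPM per gene, and a comparison table with log2 fold changes, p-values and false discovery rates. Tools named, without roles, by the submitters' processing notes are StringTie, TopHat2 2.1.1, R 3.3.2, limma 3.30.13 and edgeR 3.16.5, with builds mm10 and GRCm38. The counter and its strand setting are not given in the sources used here. Symbols matched 54409 of 54532 gene IDs in GENCODE M21, whose GRCm38 coordinates are printed. Counts were tested with edgeR 4.0.16 in R 4.3.3 (filterByExpr with a minimum count of 10 and total of 15, TMM scaling, quasi-likelihood test with group as the only term, 2 residual degrees of freedom, two-sided, Benjamini-Hochberg over all tested genes). SE and 95% intervals come from the F statistic. The deposited TPM were used for levels between genes and in limma 3.58.1 as an alternative. DESeq2 1.42.0, limma-voom, scaling, filtering, leave-one-out and block fits were further alternatives. The fits were also run on counts simulated from means and dispersions fitted to these libraries, which cannot show that those dispersions hold.

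Members and lists were chosen with earlier results of these data known. Named genes are the members, the 5 VEGF receptors, Lats1 and Lats2, and, by smallest p-value, up to 4 called genes of each other pathway list and 3 of each marker list. Outside that rule Ccbe1, Plat, Pik3r1, Pik3ca, Plcg1, Hif1a, Cldn5, Sox10, Foxd3 and Xist were chosen after their values were seen. So were the genes overlapping members, Notch3 and the mural markers beyond the first 3. Each group has 2 embryos, so p-values rest on the spread between 2 libraries per group, which edgeR moderates by the spread of all tested genes.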

Additional observations from a re-analysis of the deposited data

How the results depend on the processing

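All 10 genes kept a positive log2 fold change in every alternative run, and the same 5 passed under DESeq2 size factors, upper quartiles, library totals, no filter, limma-voom, TPM filtered at a mean of 1 and without the ribosomal cluster. Without a single library, between 0 and 7 members were higher and 0 were lower, and of all other listed genes 16 to 76 were higher and 5 to 29 lower, against 58 and 23. On unfiltered TPM, 0 members passed with a pseudocount of 1 and 0 with 0.1 (5 and 5 at an unadjusted p under 0.05, against 7.78% and 7.98% of genes), and of the other listed genes 0 were higher and 0 lower with 1, and 5 higher and 3 lower with 0.1, in fits that called 0 and 56 of 30682 genes in all. Library totals moved the median of all genes by -0.35, with 1219 genes higher and 3744 lower against 1716 and 1558, and put Vegfb at 0.14. TPM moved it by up to -0.21. Deviations of same-numbered libraries did not pair (correlation -0.037 across genes). With the replicate block, 5 members were higher and 0 lower, of the other listed genes 51 and 17 (of 16 receptor signalling genes 3 and 0), and of all genes 1778 were called against 3274, while Flt4 had an adjusted p of 0.0571. Pdgfd and Pgf had 53 to 112 counts a library, the lowest of the 10 genes.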
